A study of Homo sapiens with 6 samples.

Results

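The genes described here are the sestrins SESN1, SESN2 and SESN3, the DDIT4 family (DDIT4, whose product is also called REDD1, and DDIT4L), and further genes whose proteins hold back the growth kinase complex mTORC1 (TSC1, TSC2, DEPTOR, CASTOR1 and AKT1S1). They were chosen by name, 10 in all, and 9 had a row among the 11048 listed genes. CASTOR1 had no row under its current or an older symbol and was not analysed here.

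mTORC1 drives protein synthesis and cell growth when amino acids and growth factors are plentiful. Amino acids recruit it to the lysosome through the Rag GTPases, where the GTPase RHEB switches it on, and the restraints act at different points of this route. Sestrins bind GATOR2, an activator of the amino acid branch, and SESN2 is known as a sensor of leucine. DDIT4 acts through the TSC1-TSC2 complex, which turns RHEB off, while DEPTOR and AKT1S1 (also called PRAS40) bind the kinase complex itself. Transcription of SESN2 and DDIT4 is known to follow ER stress and amino acid shortage through the factor ATF4, and high DEPTOR is known from a part of multiple myelomas.

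MM1.S is an established human multiple myeloma cell line. Its cells were treated for 6 h with the DMSO vehicle, with 3 µM CCF642, an inhibitor of protein disulfide isomerase PDIA1, or with 3 µM of its structural analogue CCF642-34, and 2 libraries of poly(A) RNA were sequenced per group. All groups were the same cell line in the same medium, and the labels do not say whether replicates were separate cultures, so the p values measure only the spread between these libraries, which may be technical. The comparisons asked which of the restraints differed from the vehicle with each compound, and where the compounds differed from each other at the same dose and time.

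The deposited values are CPM, read numbers per gene brought to the same total in every library, from libraries of 20567313 to 28459677 reads. Fold changes are on the log2(CPM + 1) scale after TMM scaling, a correction for differences in RNA composition, and genes were called at a limma adjusted p under 0.05. By this rule 63.1% of all genes were called with CCF642, 57.6% with CCF642-34 and 33.4% between the compounds, so that a call alone is common here. Of the calls, 50.4% with CCF642, 51.6% with CCF642-34 and 47.8% between the compounds were in the higher direction, against 34.8%, 38.6% and 61.8% without TMM scaling (the median of all genes with CCF642 went from −0.0066 to −0.13 on the log2 scale). All 8 plasma cell markers had a row, with a sum of 4754 to 5077 CPM per library. Of 20 markers of B, T, myeloid, erythroid, stromal or epithelial cells, 5 had a row, and no list of them summed to more than 11.8 CPM in a library. COL1A1 with EPCAM summed to 2.13 to 2.48 CPM with DMSO, 10.2 to 11.8 CPM with CCF642 and 4.36 to 4.78 CPM with CCF642-34. Their part in the results was not tested.

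SESN2 and DDIT4 were the members that rose strongly, and they did so with both compounds. SESN2 stood at 23.5 and 24.7 CPM in the DMSO libraries, at 493.4 and 499.997 CPM with CCF642, and at 442 and 435 CPM with CCF642-34. The groups were far apart, and the CCF642-34 libraries lay below both CCF642 libraries. The fitted log2 change was 4.44 for CCF642 (SE 0.046, limma adjusted p = 6.34e-51) and 4.22 for CCF642-34 (SE 0.046, limma adjusted p = 5.04e-50), which ranked 4 of 11048 by size of increase in each comparison. These are increases of 21.7-fold (95% interval 20.4 to 23.2) and 18.6-fold (17.4 to 19.8). The SESN2 values rest on 528 to 541 reads per library with DMSO and on 10148 to 12572 reads with the compounds.

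DDIT4 stood at 91.7 and 96.1 CPM with DMSO, at 310 and 273 CPM with CCF642, and at 342 and 332 CPM with CCF642-34. All treated libraries were above the vehicle, and here the CCF642-34 libraries were the higher ones. DDIT4 rose by 1.76 on the log2 scale with CCF642 (SE 0.048, limma adjusted p = 2.66e-33), a fold between 3.16 and 3.61 (95% interval), and by 1.92 with CCF642-34 (SE 0.048, limma adjusted p = 1.13e-34), a fold between 3.54 and 4.05. It ranked 110 and 51 by size of increase. Of the exon bases of DDIT4, 41.2% overlap the antisense gene DDIT4-AS1, which had no row, and without strand their reads cannot be told apart. In these bulk libraries, fewer cells with an mRNA and less of it per cell cannot be told apart either. Of the 9 members, 2 rose at least 2-fold at the same adjusted p with each compound and 0 fell as far. Among all genes, 4.50% rose and 1.99% fell by this rule with CCF642 (6.49% in all), and 2.59% rose and 1.29% fell with CCF642-34 (3.87% in all).

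**Figure D1:**
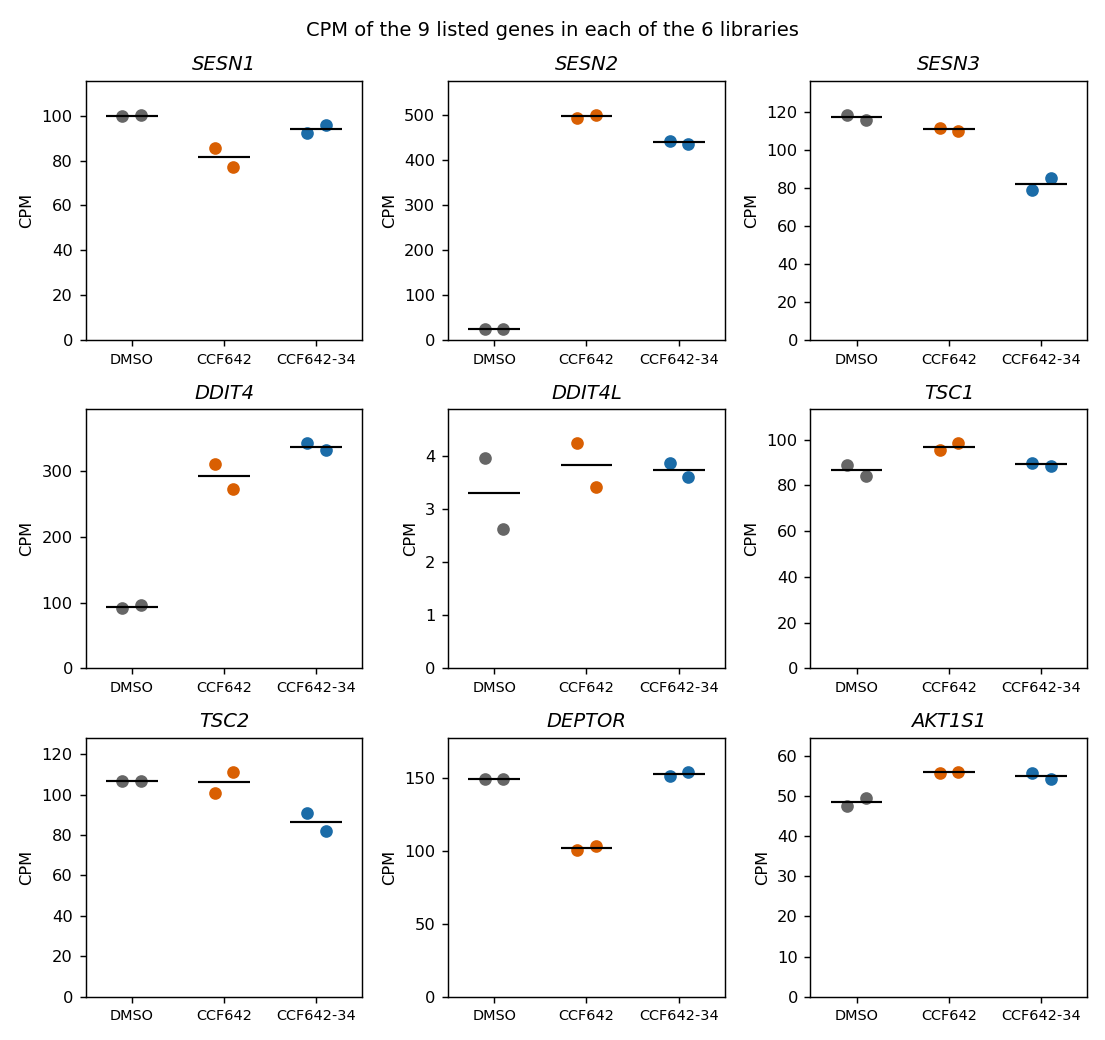
Deposited CPM (y axis, linear, from 0) of the 9 listed genes in the 2 libraries of each group (points), with the group mean as a bar. SESN2 and DDIT4 rise with both compounds, DEPTOR is low in the CCF642 libraries only (100.5 and 103.7 CPM), and SESN3 is lowest in the CCF642-34 libraries (78.8 and 85.1 CPM).

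The 250 bases before the RefSeq start of SESN2 and DDIT4, which rose together, are shown with those of SESN3, which did not rise, so that the promoters can be compared (RefSeq, GRCh38.p14, while the submitters' notes name hg19). Capitals mark matches on either strand to CCAAT, the box bound by NF-Y (ATTGG on the other strand), or to ACGTG, the core of the element bound by HIF-1.
SESN2 (chr1:28259268-28259517, + strand): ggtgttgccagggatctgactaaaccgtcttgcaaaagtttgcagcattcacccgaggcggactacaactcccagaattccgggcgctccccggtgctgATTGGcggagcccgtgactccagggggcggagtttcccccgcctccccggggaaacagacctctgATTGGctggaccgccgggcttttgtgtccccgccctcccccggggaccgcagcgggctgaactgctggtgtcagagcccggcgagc
DDIT4 (chr10:72273674-72273923, + strand): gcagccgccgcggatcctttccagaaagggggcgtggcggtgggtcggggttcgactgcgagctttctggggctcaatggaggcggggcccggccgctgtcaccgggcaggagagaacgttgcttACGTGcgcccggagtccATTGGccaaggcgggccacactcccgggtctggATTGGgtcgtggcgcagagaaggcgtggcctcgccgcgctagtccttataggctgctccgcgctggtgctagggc
SESN3 (chr11:95232476-95232725, − strand): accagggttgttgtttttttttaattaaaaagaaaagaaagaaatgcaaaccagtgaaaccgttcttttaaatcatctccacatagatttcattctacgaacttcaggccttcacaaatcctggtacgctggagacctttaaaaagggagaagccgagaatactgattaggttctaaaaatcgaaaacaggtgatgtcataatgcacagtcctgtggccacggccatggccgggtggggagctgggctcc

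Each of the SESN2 and DDIT4 windows held 2 CCAAT matches, beginning 151 and 86 bases before the start in SESN2 and 108 and 75 bases before it in DDIT4. The DDIT4 window also held 1 ACGTG match, 125 bases before the start. The SESN3 window held neither. Of the 3 windows of SESN1, 2 held 1 CCAAT match each. Over all 35116 RefSeq promoter windows of 250 bases, 32.0% held CCAAT and 18.5% held ACGTG. Neither TGATGNAA, the core of the composite element bound by ATF4 with C/EBP proteins (in 3.14% of all windows), nor GTAAACA, the element bound by FOXO factors (in 2.98%), occurred in the 3 windows. Among the 10 windows of the 7 members whose promoters were taken, TGATGNAA occurred in 1, that of TSC2, where its first 2 bases are shared with an ACGTG match. A match describes letters only, and its absence here covers only these windows. No promoter was taken for DEPTOR, since chromosome 8 was left out of the search, or for AKT1S1, which had no entry in the RefSeq table.

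The other sestrins did not follow SESN2. SESN1, a known target of p53, stood at 99.7 and 100.4 CPM with DMSO, at 85.7 and 77.3 CPM with CCF642, and at 92.1 and 96.0 CPM with CCF642-34. The CCF642 libraries were the lowest, and all treated libraries were under the vehicle before TMM scaling. The fitted log2 change was −0.16 for CCF642 (SE 0.057, limma adjusted p = 0.0120) and 0.00025 with CCF642-34 (95% interval −0.11 to 0.11, limma adjusted p = 0.998). The SESN1 value with CCF642 was no longer called without DMSO replicate 1 (−0.17), DMSO replicate 2 (−0.16) or CCF642 replicate 2 (−0.092), and its adjusted p ran from 1.81e-05 to 0.199 over 16 alternatives.

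SESN3, known as a target of FOXO factors, stood at 119 and 116 CPM with DMSO, at 112 and 110.2 CPM with CCF642, and at 78.8 and 85.1 CPM with CCF642-34. Only the CCF642-34 libraries stood well below the others. SESN3 fell by 0.42 on the log2 scale with CCF642-34 (SE 0.054, limma adjusted p = 4.18e-09) and had a fitted change of 0.056 with CCF642 (95% interval −0.052 to 0.17, limma adjusted p = 0.375), which was −0.077 without TMM scaling. The direct difference between the compounds was −0.48 (95% interval −0.59 to −0.37, limma adjusted p = 9.11e-10).

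The make-up of sestrin mRNA differed between vehicle and compounds. Divided by the total exon length of each gene in GENCODE release 29, SESN2 was at 6.81 and 7.14 CPM per kilobase with DMSO, below SESN1 (19.5 and 19.6) and SESN3 (11.2 and 10.9). With CCF642, SESN2 was at 143 and 145 CPM per kilobase and SESN1 at 16.7 and 15.1. With CCF642-34, SESN2 was at 128 and 126 CPM per kilobase and SESN1 at 17.99 and 18.7. The share of SESN2 in the sestrin sum per kilobase was 18.2% and 19.0% with DMSO, 84.0% and 85.0% with CCF642, and 83.4% and 82.5% with CCF642-34. The sum itself went from 37.5 and 37.7 CPM per kilobase with DMSO to 170 and 170 with CCF642 and 153 and 153 with CCF642-34. These levels depend on the annotation, since the transcripts used in MM1.S may be shorter than all exons together.

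**Figure D2:**
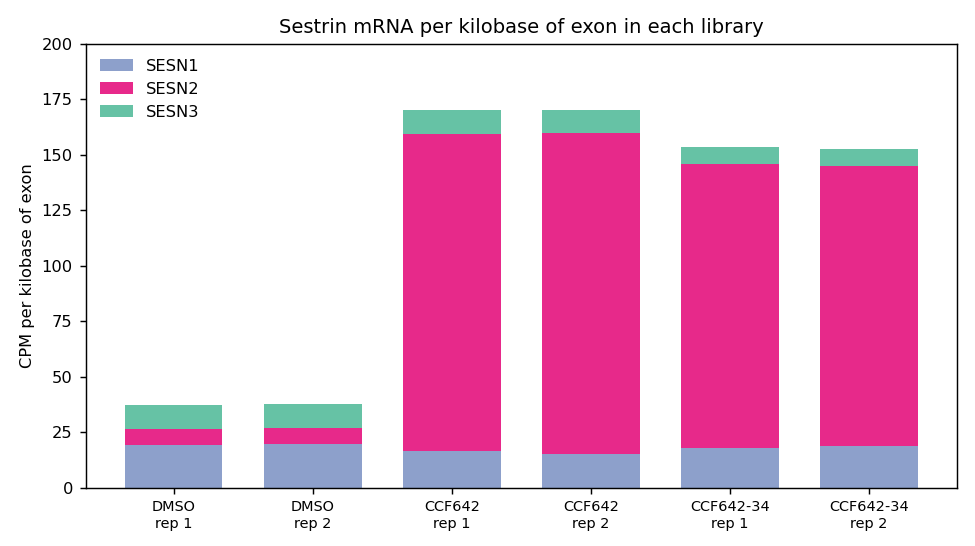
Stacked CPM per kilobase of exon (y axis, linear, from 0) of SESN1, SESN2 and SESN3 in each of the 6 libraries (x axis). SESN2 makes up 18.2% to 19.0% of the bar in the DMSO libraries and 82.5% to 85.0% in the treated ones.

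DDIT4L, the paralogue of DDIT4 also called REDD2, had by far the lowest counts of the members, at 3.96 and 2.62 CPM with DMSO, 4.23 and 3.41 CPM with CCF642, and 3.87 and 3.60 CPM with CCF642-34. These values rest on 56 to 110 reads per library, and the groups overlapped. The fitted log2 change was 0.29 for CCF642 (95% interval −0.078 to 0.65, limma adjusted p = 0.166) and 0.23 with CCF642-34 (−0.13 to 0.59, limma adjusted p = 0.285). Without DMSO replicate 1, the value with CCF642 was 0.51 and called, and over 15 alternatives its adjusted p ran from 0.0462 to 0.838. An increase of the size seen for DDIT4 lies outside both intervals.

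TSC1 and TSC2 encode the core of the complex through which DDIT4 acts. TSC1, which stabilises TSC2, stood at 88.8 and 84.3 CPM with DMSO, at 95.6 and 98.5 CPM with CCF642, and at 89.7 and 88.7 CPM with CCF642-34. The CCF642 libraries were the highest, and the CCF642-34 libraries overlapped those of the vehicle. TSC1 rose by 0.30 on the log2 scale with CCF642 (SE 0.056, limma adjusted p = 9.17e-06). The value with CCF642-34 was 0.13 (limma adjusted p = 0.0392). It did not pass without TMM scaling (0.043), with DESeq2 (0.13), or without DMSO replicate 1 (0.17), DMSO replicate 2 (0.096), CCF642-34 replicate 1 (0.12) or CCF642-34 replicate 2 (0.14), with adjusted p from 0.0222 to 0.526 over 16 alternatives.

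TSC2, whose protein holds the GTPase-activating part of the complex, stood at 106.7 and 106.7 CPM with DMSO, at 100.7 and 111 CPM with CCF642, and at 91.0 and 81.8 CPM with CCF642-34. The CCF642 libraries lay on both sides of the vehicle, and the CCF642-34 libraries lay below it. TSC2 fell by 0.21 on the log2 scale with CCF642-34 (SE 0.058, limma adjusted p = 0.00144), which was −0.13 and not called without CCF642-34 replicate 2 (adjusted p from 1.68e-05 to 0.108 over 16 alternatives). With CCF642 the fitted change was 0.12 (limma adjusted p = 0.0627). That value was −0.011 without TMM scaling, 0.20 and called without CCF642 replicate 1, and 0.13 and called when only these 2 groups were fitted (adjusted p from 0.00418 to 0.881 over 16 alternatives). Exons of PKD1 on the other strand overlap 778 bases of TSC2 exons, or 3.96% of them, and PKD1 had log2 changes of 0.13 and −0.14 with CCF642 and CCF642-34. Its part in the TSC2 values was not tested.

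Of the genes whose proteins bind mTORC1 itself, DEPTOR fell with CCF642 and AKT1S1 rose with both compounds. DEPTOR stood at 149.5 and 149.7 CPM with DMSO, at 100.5 and 103.7 CPM with CCF642, and at 152 and 154 CPM with CCF642-34. The CCF642 libraries were clearly the lowest, and the CCF642-34 libraries were just above the vehicle. DEPTOR fell by 0.41 on the log2 scale with CCF642 (SE 0.049, limma adjusted p = 5.10e-10). With CCF642-34 its value was 0.12 (limma adjusted p = 0.0315). This did not pass without TMM scaling (0.033), with DESeq2 (0.12), or without DMSO replicate 1 (0.12), DMSO replicate 2 (0.12), CCF642-34 replicate 1 (0.13) or CCF642-34 replicate 2 (0.11), with adjusted p from 0.0140 to 0.587 over 16 alternatives.

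AKT1S1 stood at 47.5 and 49.3 CPM with DMSO, at 55.7 and 56.0 CPM with CCF642, and at 55.7 and 54.2 CPM with CCF642-34. All treated libraries were above the vehicle. AKT1S1 rose by 0.33 on the log2 scale with CCF642 (SE 0.066, limma adjusted p = 2.31e-05) and by 0.27 with CCF642-34 (SE 0.066, limma adjusted p = 0.000563). The exons of TBC1D17 overlap 6.83% of its exon bases on the other strand. TBC1D17 had log2 changes of 0.76 and 0.48 with CCF642 and CCF642-34, and its part in the AKT1S1 values was not tested.

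In all, 4 members rose and 2 fell with CCF642 (31.8% and 31.3% of all genes did), and 5 rose and 2 fell with CCF642-34 (29.7% and 27.9%). Thus 6 of 9 were called with CCF642, close to the 63.1% of all genes, and 7 of 9 with CCF642-34, beside 57.6%. On the log2 scale the median change of the 9 members was 0.29 with CCF642 and 0.13 with CCF642-34, beside −0.0066 and 0.0067 over all genes, and the median absolute value was 0.30 and 0.23, beside 0.29 and 0.25. The libraries of the groups did not overlap in CPM for 7 of 9 members with each compound, where this held for 81.7% and 79.3% of all genes. Both comparisons share the DMSO libraries. Without CCF642-34 replicate 2, only 4 members were called with CCF642-34.

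**Figure D3:**
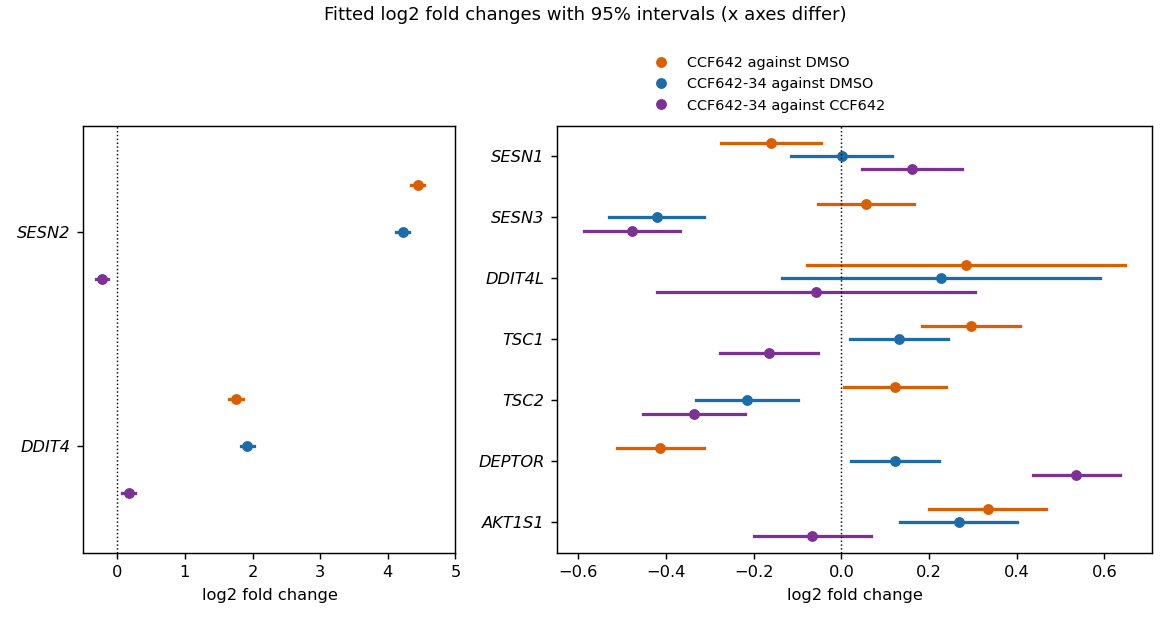
Fitted log2 fold changes (x axis) of the 9 members in the 3 comparisons, with limma's 95% intervals as bars. SESN2 and DDIT4 are drawn on a wider axis than the other 7 genes. DEPTOR, SESN3 and TSC2 have the largest direct differences between the compounds, and only the direct intervals of AKT1S1 and DDIT4L hold 0.

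The compounds were then compared directly at the same dose and time, as 1 pair. They differed in 7 of 9 members by limma's test, where 33.4% of all genes were called, with 3 higher for CCF642-34 (15.9% of all genes) and 4 lower (17.4%). DESeq2 called 6 members. The libraries did not overlap for 8 of 9 members and for 65.1% of all genes. The fitted folds of the members lay between 0.718 and 1.45, so that 0 were 2-fold apart under any p, beside 0.308% of all genes at the adjusted p (0.00905% higher and 0.299% lower). DEPTOR was higher for CCF642-34 by 0.54 on the log2 scale (95% interval 0.44 to 0.64, limma adjusted p = 2.70e-12), or 1.45-fold, which ranked 94 of 11048 among the increases. In the opposite direction were SESN3, given above, and TSC2, lower by 0.34 on the log2 scale (95% interval −0.45 to −0.22, limma adjusted p = 9.21e-06).

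SESN2 and DDIT4 differed between the compounds in opposite directions and by little beside their rise. SESN2 was lower with CCF642-34 by a log2 difference of −0.22 (95% interval −0.32 to −0.13, limma adjusted p = 0.000164). DDIT4 was higher by 0.17 (0.068 to 0.26, limma adjusted p = 0.00640), but leaving out CCF642 replicate 2 gave 0.079 and leaving out CCF642-34 replicate 1 gave 0.14, both not called (adjusted p from 2.26e-05 to 0.244 over 16 alternatives). SESN1 was higher by 0.16 (limma adjusted p = 0.0239) and did not pass with DESeq2 (0.15) or without CCF642 replicate 2 (0.092), CCF642-34 replicate 1 (0.19) or CCF642-34 replicate 2 (0.14), with adjusted p from 0.00213 to 0.274. TSC1 had a difference of −0.16 (limma adjusted p = 0.0187) and did not pass without TMM scaling (−0.12), CCF642 replicate 2 (−0.14), CCF642-34 replicate 1 (−0.18) or CCF642-34 replicate 2 (−0.15), with adjusted p from 0.0132 to 0.107. AKT1S1 (−0.067, 95% interval −0.20 to 0.067) and DDIT4L (−0.057, −0.42 to 0.31) did not pass. Without CCF642 replicate 2, or without CCF642-34 replicate 1, 4 members were called.

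The genes with the most similar pattern were found by the distance between log2 values of the 6 libraries, after the mean of each gene was taken off, among 8924 genes. Nearest to SESN2 were ADM2, the gene of adrenomedullin 2 (distance 0.25), DUSP8, a MAP kinase phosphatase (0.31), and TRIB3, a stress pseudokinase (0.40). The distance between SESN2 and a flat profile was 5.004. DUSP8 had a mean of only 1.44 CPM with DMSO, 46.5 with CCF642 and 35.6 with CCF642-34. Its closeness to SESN2 therefore depends on the 1 added to CPM before the log2. Nearest to DDIT4 were TNFRSF10B, a death receptor for TRAIL (0.13), the alanine aminotransferase gene GPT2 (0.21) and TES (0.22), beside 2.13 for a flat profile. TNFRSF10B had a mean of 24.6 CPM with DMSO, 82.2 with CCF642 and 87.3 with CCF642-34. Nearest to DEPTOR were NIPAL3 (0.12), UBAC2 (0.13) and KDF1 (0.13), which all had lower means with CCF642 than in the other groups. Nearest to SESN3 were AFF1 (0.10), BTBD3 (0.11) and PSMC3IP (0.12), which were lowest with CCF642-34. These distances are descriptions over 6 libraries in 3 groups.

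Of 10 transcription factors known to act on sestrin or DDIT4 genes, 8 rose and 0 fell by limma's test with CCF642 (all 10 had a row, and the remaining 2 did not pass), and 9 rose and 1 fell with CCF642-34, beside 31.8% and 29.7% of all genes that rose. Without TMM scaling, 8 rose and 2 fell with CCF642 and 7 rose and 1 fell with CCF642-34. The median log2 change of the list was 1.32 with CCF642 and 0.86 with CCF642-34. DDIT3, the gene of the stress factor CHOP, rose from a mean of 20.7 CPM with DMSO to 212 (CCF642) and 204 CPM (CCF642-34), by 3.42 and 3.32 on the log2 scale. CEBPB, which pairs with ATF4 and CHOP, rose from 6.00 CPM to 70.6 and 60.8 CPM (3.48 and 3.22). The FOXO factors, known activators of SESN3, differed among themselves. FOXO1, chosen after its values were seen, rose from a mean of 14.6 CPM to 53.0 and 30.8 CPM, by 1.91 and 1.11 on the log2 scale. FOXO3 had −0.101 with CCF642-34 (limma adjusted p = 0.0184), which was not called without DMSO replicate 1 (−0.074, limma adjusted p = 0.257) or CCF642-34 replicate 2 (−0.076, limma adjusted p = 0.177), and −0.018 with CCF642 (limma adjusted p = 0.694). Compared directly, 1 factor was higher and 5 were lower with CCF642-34 than with CCF642, beside 15.9% and 17.4% of all genes.

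Among 9 known protein partners of sestrins and DDIT4, 3 rose and 4 fell with CCF642, and 4 rose and 2 fell with CCF642-34. Over all genes, 31.8% rose and 31.3% fell with CCF642, and 29.7% rose and 27.9% fell with CCF642-34. SQSTM1, the autophagy receptor that joins SESN2 and KEAP1, rose from a mean of 1004 CPM with DMSO to 4863 (CCF642) and 3523 CPM (CCF642-34), by 2.41 and 1.90 on the log2 scale. TXNIP, which binds DDIT4, fell by 0.23 on the log2 scale with CCF642 and had −0.058 with CCF642-34 (limma adjusted p = 0.413).

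Of 11 other restraints of mTORC1, 8 had a row, which were the GATOR1 and KICSTOR subunits and TBC1D7, while CASTOR2, SAMTOR and GRB10 had none. Of the 8, 4 rose and 3 fell with CCF642 (31.8% and 31.3% of all genes did). With CCF642-34, 3 rose and 2 fell (29.7% and 27.9%). TBC1D7, the third subunit of the TSC complex, fell by 0.85 on the log2 scale with CCF642 and by 0.34 with CCF642-34, from a mean of 19.5 CPM to 9.40 and 14.3 CPM. The value with CCF642-34 was not called without DMSO replicate 1 (−0.32, limma adjusted p = 0.0707) or CCF642-34 replicate 2 (−0.32, limma adjusted p = 0.0550). The GATOR1 subunit DEPDC5 fell by 0.46 and 0.43 on the log2 scale. The KICSTOR subunit ITFG2 rose by 0.58 and 0.33.

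Among the targets of these restraints, changes went both ways. Of 8 mTOR complex subunits with a row, 2 rose and 4 fell with CCF642 and 1 rose and 4 fell with CCF642-34. The shares of all genes that rose and fell were 31.8% and 31.3% with CCF642, and 29.7% and 27.9% with CCF642-34. PRR5L, a component of mTORC2, was low, at 4.87 and 4.39 CPM with DMSO, 0.875 and 2.79 CPM with CCF642, and 1.30 and 0.971 CPM with CCF642-34. At such low values the 1 added to CPM before the log2 makes fold changes smaller than the CPM alone would give. PRR5L fell by 1.33 on the log2 scale with CCF642-34 and by 0.98 with CCF642, where the libraries stood apart. The latter value was −0.46 and not called without CCF642 replicate 1 (limma adjusted p = 0.0720) and −1.50 without CCF642 replicate 2 (limma adjusted p = 3.03e-08). RICTOR, the defining subunit of mTORC2, rose by 0.40 with CCF642 and had 0.026 with CCF642-34 (limma adjusted p = 0.694). Of 19 genes of the lysosomal branch that activates mTORC1, 7 rose and 6 fell with CCF642 (6 and 10 without TMM scaling). With CCF642-34, 6 rose and 2 fell (5 and 4), beside the shares of all genes given above. FNIP1, a partner of the Rag regulator folliculin, rose by 0.84 and 0.57. The GATOR2 subunits, on which sestrins act, went in both directions. SEC13 rose by 0.63 and 0.59, while SEH1L fell by 0.40 and 0.35 on the log2 scale. MIOS, another subunit that was chosen after its values were seen, rose by 0.32 with CCF642 and had 0.10 with CCF642-34 (limma adjusted p = 0.161).

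Of 9 AMPK subunits and upstream kinases with a row, 2 rose and 3 fell with each compound. This stood beside 31.8% and 31.3% of all genes with CCF642, and 29.7% and 27.9% with CCF642-34. CAMKK2, a kinase that activates AMPK, fell by 0.80 and 0.72 on the log2 scale with CCF642 and CCF642-34, and STK11, the gene of the AMPK kinase LKB1, by 0.55 and 0.30. The AMPK subunit genes PRKAB1 and PRKAG1 rose, by 0.37 and 0.53 and by 0.25 and 0.47. Without TMM scaling, PRKAG1 was not called with CCF642 (0.12). The subunit gene PRKAA1, chosen after its values were seen, fell by 0.16 with CCF642-34 and had −0.11 with CCF642 (limma adjusted p = 0.0957). Of 13 genes of the PI3K-AKT input, 3 rose and 9 fell with CCF642 and 2 rose and 8 fell with CCF642-34, beside 31.3% and 27.9% of all genes called lower. IRS1, an adaptor of the insulin receptor, fell by 1.04 and 0.74 on the log2 scale, and IGF1R, a growth factor receptor, by 0.81 and 0.75.

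Of 12 mTORC1 substrates and effectors with a row, 7 rose and 3 fell with CCF642 (4 and 4 without TMM scaling). With CCF642-34, 4 rose and 3 fell (4 and 4). With TMM scaling, 31.8% of all genes rose and 31.3% fell with CCF642, and 29.7% rose and 27.9% fell with CCF642-34. EIF4EBP1, which encodes the repressor of translation 4E-BP1, rose from a mean of 45.6 CPM with DMSO to 92.1 (CCF642) and 109.8 CPM (CCF642-34), by 1.13 and 1.34 on the log2 scale. Its relative EIF4EBP2 fell by 0.60 and 0.48 on the log2 scale. TFEB, a factor for lysosomal genes that mTORC1 keeps in the cytoplasm, rose by 0.89 and 1.11. The median log2 changes of the lists other than the transcription factors lay between −0.29 and 0.13 with CCF642 and between −0.19 and 0.12 with CCF642-34.

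**Figure D4:**
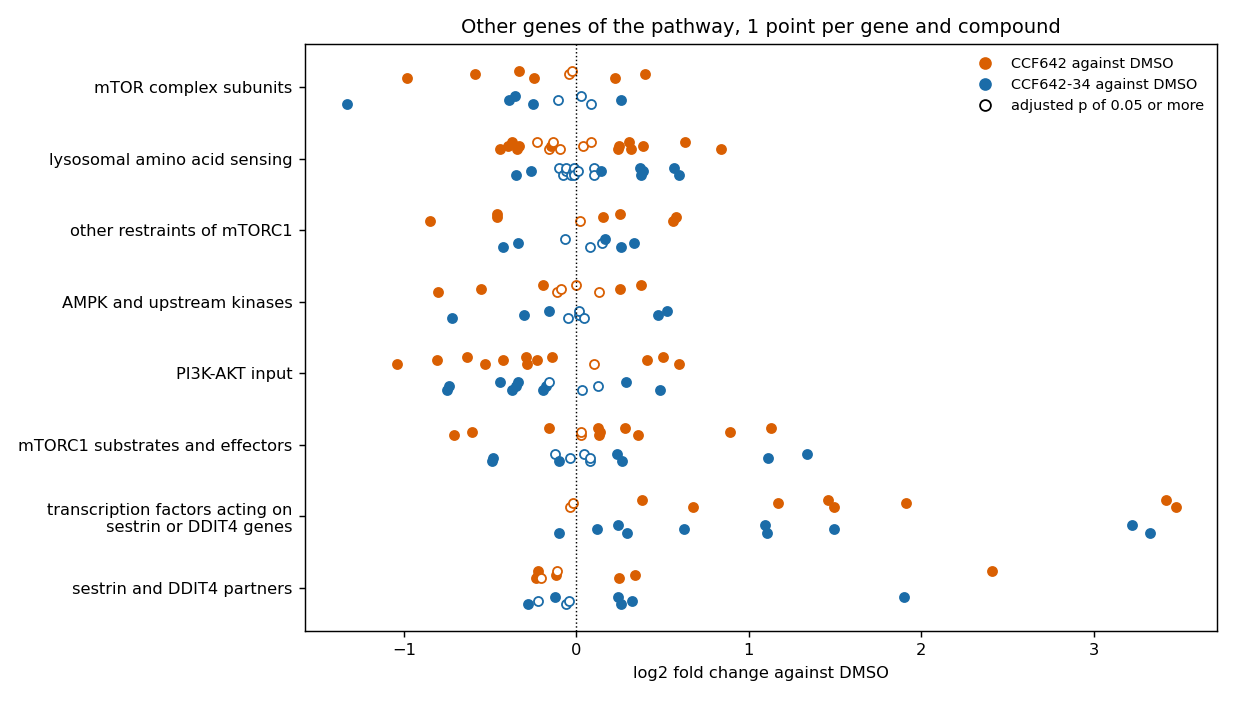
Log2 fold changes against DMSO (x axis) of the other genes of the pathway, 1 point per gene and compound, by list (y axis). Filled points have a limma adjusted p under 0.05. The transcription factors reach 3.48 (CEBPB with CCF642), while most genes of the other lists lie within 1 of 0.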

How the data were processed

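Poly(A) RNA of 6 MM1.S libraries, 2 per group, was sequenced, and the authors deposited 1 CPM value per gene and library for 11048 genes. The submitters' processing notes name the build hg19, STAR, edgeR (3.24.3) and limma (3.38.3), with no role given, and the counting tool and annotation are not given in the sources used here. Groups came from the sample titles. Read numbers were recovered from the step that 1 read makes in CPM, which gave whole numbers within 0.05 reads for 100% of values, and the totals are 20567313 to 28459677 reads, whose number limits the precision of low genes such as DDIT4L. In the CCF642-34 libraries the smallest listed values correspond to 5 and 3 reads, so that the step there came from the gaps between values.

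CPM were scaled by TMM (edgeR 4.0.16), increased by a pseudocount of 1, converted to log2 and fitted for all genes and all 3 groups with limma (3.58.1, R 4.3.3) without a block, with 3 residual degrees of freedom and a prior of 42.9. Tests were two-sided with Benjamini-Hochberg adjustment over all 11048 genes. On simulated reads for CCF642-34 against DMSO over 11048 genes, 98 of 100 genes changed 3-fold, 86 of 100 changed 1.5-fold and 7 of 10848 unchanged genes were called. Few genes were changed there, in either direction, with the same relative spread for all genes. In the data 57.6% of genes were called, so the simulation cannot give the error rate of these calls.

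The members and lists were chosen with earlier results of these data known. Named genes are the members, the 2 largest called increases and decreases of each list with each compound, and the 3 genes most similar to each member with a mean log2 value of at least 3. PKD1 and TBC1D17 were named for their overlap with members. C12orf66 was matched to KICS2 by its older symbol. Tried beside these were scaling by size factors of DESeq2 or by library size only, pseudocounts of 0.5 and 4, a mean CPM of at least 5, edgeR, DESeq2 (1.42.0) and limma-voom on recovered reads, fits of 2 groups, a replicate block, and fits without each library, in which the lone library of a group is assumed to vary like the others. The lists were also counted under the other scalings, and their named genes were fitted without each library, as alternatives chosen after seeing the data. A few results are not reported here. The table of the whole series was not used.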

Additional observations from a re-analysis of the deposited data

How the results depend on the processing

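Over 16 alternatives, the log2 fold changes of members kept their direction and their side of the threshold in 390 of 429 cases, lost the call in 26, gained it in 4 and changed sign in 9. With CCF642 against DMSO, the changes of SESN2, DDIT4, DEPTOR, TSC1 and AKT1S1 were called under every alternative. With CCF642-34 against DMSO, this held for SESN2, DDIT4, SESN3 and AKT1S1. It also held for the direct differences of DEPTOR, SESN3, TSC2 and SESN2. SESN2 ranged from 4.28 to 4.50 with CCF642 and from 4.06 to 4.28 with CCF642-34, and DDIT4 from 1.62 to 1.84 and from 1.83 to 1.96. All sign changes were in values that did not pass the test. With library size alone, SESN3 (−0.077) and TSC2 (−0.011) with CCF642 and SESN1 (−0.089) with CCF642-34 were below 0, since this setting leaves out the TMM factors, which were above 1 with DMSO and below 1 with the compounds. SESN1 with CCF642-34 was also below 0 with DESeq2's size factors (−0.0060), with DESeq2 (−0.0058), in the fit of 2 groups (−0.0030), without DMSO replicate 1 (−0.0053) and without CCF642-34 replicate 2 (−0.024, and up to 0.026 without another library). DDIT4L between the compounds ranged from −0.18 to 0.064 without 1 library, the latter without CCF642 replicate 1. The cause of these was not tested. Across fits without 1 library, 4 to 7 members were called with CCF642-34 against DMSO and 4 to 7 between the compounds, and 5 to 7 with CCF642. Without CCF642-34 replicate 1 or 2, 1044 or 1168 genes in place of 1760 were higher with CCF642-34 than with CCF642. The labels give the groups the same replicate numbers but no shared origin, and the differences between replicates had correlations of −0.027, −0.058 and 0.070 across genes between groups. With the replicate block, 7014, 6422 and 3802 genes were called in the 3 comparisons in place of 6974, 6362 and 3685, and TSC2 with CCF642 was called (0.12, limma adjusted p = 0.0474). edgeR on the recovered reads called 6932, 6440 and 3724 genes. DDIT4L had no value with the minimum mean CPM of 5. Depth limits DDIT4L, whose intervals are the widest of the members.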

Other observations

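The genes with the most similar pattern to the members that changed least were listed in the same way, among 8924 genes. Nearest to TSC1 were STXBP2 (distance 0.033), ZFX (0.036) and EPC2 (0.046), beside a distance of 0.30 between TSC1 and a flat profile. Nearest to TSC2 were RBM14 (0.079), SCAF4 (0.082) and MPHOSPH8 (0.097), all with lower means with CCF642-34 than in the other groups, beside 0.37 for a flat profile. Nearest to AKT1S1 were RNPEPL1 (0.031), BARX2 (0.043) and RPS19 (0.043), and nearest to SESN1 were GALNT14 (0.034), KCTD2 (0.043) and AVEN (0.048). DDIT4L lay farther from its nearest genes STX4 (0.17), KSR1 (0.18) and OSTM1 (0.21). Small changes leave many genes close to each other, and no test was made of these distances.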
